A study of Drosophila melanogaster with 8 samples.

Results

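The genes described here are 10 actin, tubulin and other cytoskeleton genes of Drosophila melanogaster, taken by their FlyBase identifiers from 17559 genes in a study of RNA bound to Sex-lethal (SXL) and Sister-of-Sex-lethal (SSX). They are the actin genes Act5C (FBgn0000042) and Act42A (FBgn0000043), the alpha-tubulin genes alphaTub84B (FBgn0003884) and alphaTub84D (FBgn0003885), tsr (FBgn0011726), chic (FBgn0000308), Tm1 (FBgn0003721), futsch (FBgn0259108), sqh (FBgn0003514) and Moe (FBgn0011661). RNA immunoprecipitation sequencing (RIP-seq) was done in SL2, a male embryonic cell line. Cells were transfected to make SXL (2 libraries), SSX (3 libraries) or green fluorescent protein (GFP, 2 libraries), each carrying a tag of FLAG and HA epitopes, and all were precipitated with the same antibody against FLAG. SL2 cells, being male, do not make the female SXL protein. The promoter that drove the tagged proteins was not given in the sources used here. An input sample of SL2 cells is also in the series and was not analysed here.

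Actin filaments and microtubules are polymers built from actin and from alpha- and beta-tubulin. Actin filaments turn over with the help of cofilin, which severs them, and profilin, which loads actin monomers for growth. Tropomyosin coats the filaments, myosin II pulls on them, and moesin ties them to the plasma membrane. SXL and SSX are related RNA-binding proteins; SXL binds runs of uridine and controls splicing and translation in females. Actin and tubulin mRNAs are abundant in most cells and often serve as controls, and their recovery in an IP can be read against the GFP background.

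Read counts in each library were given for 3 of the 10 genes (Tm1, futsch and Moe), which belong to the authors' lists of 956 enriched genes. Summed over the lists, each SXL library had 3266209 or 3604413 reads, each SSX library 3383720 to 4429899, and each GFP library 20859 or 27467. The size factors behind the authors' values, which put the libraries on 1 scale, were 3.33 and 3.59 for SXL, 1.87 to 2.15 for SSX, and 0.0886 and 0.120 for GFP. Each bait gene was highest in its own libraries. Sxl had 33236 to 34550 normalized counts in SXL libraries, 3123 to 6103 in SSX libraries and 463 to 473 in GFP libraries. The gene ssx had 13865 to 26027 in SSX libraries, 472 to 542 in SXL libraries and 307 to 384 in GFP libraries. Sxl was thus also higher in SSX libraries than in GFP libraries. Bait reads can come from the expressed construct. Of 37 marker genes for hemocytes, male dosage compensation, neurons, muscle and germline, 8 could be matched to an identifier, all through the enriched lists, and they include srp (hemocytes), elav (neurons), Mef2 (muscle) and osk (germline). The cell type could therefore not be checked here. An IP library gives relative amounts, so more of 1 RNA and less of the others, or a change in the cells' own RNA level, cannot be told apart.

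With SSX, both actin genes, both alpha-tubulin genes and the cofilin gene tsr fell relative to GFP, while Tm1, futsch, Moe and sqh rose. With SXL, Act5C, Act42A and alphaTub84B fell, and Tm1 and Moe rose. At an adjusted p under 0.05, the authors' deposited table of the SSX comparison called 9 of the 10 genes, 4 higher and 5 lower. The background among 9034 tested genes was 45.4% called, with 26.2% higher and 19.3% lower. For SXL the authors' deposited table called 5 of the 10, 2 higher and 3 lower, against 29.4% of 7170 tested genes, with 16.4% higher and 13% lower. Both comparisons use the same GFP libraries, so their directions are not independent of each other. All 10 genes average at least 50 normalized counts, and well-measured genes are called more often. With tests limited to the 4115 genes at that level and p adjusted over them, 9 of the 10 were called with SSX, where 70.8% of all were (4 higher, background 47%, and 5 lower, background 23.8%). With SXL 6 of the 10 were called, sqh being added, where 46.9% of all were (3 higher, background 29.7%, and 3 lower, background 17.2%). The median log2 fold change of the 10 genes per the authors' deposited tables was -0.58 with SSX (all tested genes 0.44) and 0.10 with SXL (all tested genes 0.09). The 4115 genes averaging at least 50 normalized counts had medians of 0.66 with SSX and 0.35 with SXL.

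All directions given here are on the authors' scale. When edgeR scaled the libraries on the listed genes alone, which were chosen for being high with a bait, Tm1, Moe and futsch turned below 0 against GFP, and Tm1 turned above 0 for SXL over SSX. On that scale Moe passed as lower with SXL and with SSX than with GFP, and Tm1 as lower with SSX. Tm1 also passed as higher with SXL than with SSX, and Moe no longer passed between the proteins. When fold changes were centred on the median of all tested genes, Moe no longer passed with SXL and sqh no longer passed with SSX. When groups were set to equal implied totals, which moved every SXL value up by 0.49, Act42A no longer passed with SXL, Tm1 no longer passed between the proteins, and tsr, chic and sqh passed as higher with SXL than with GFP.

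**Figure D1:**
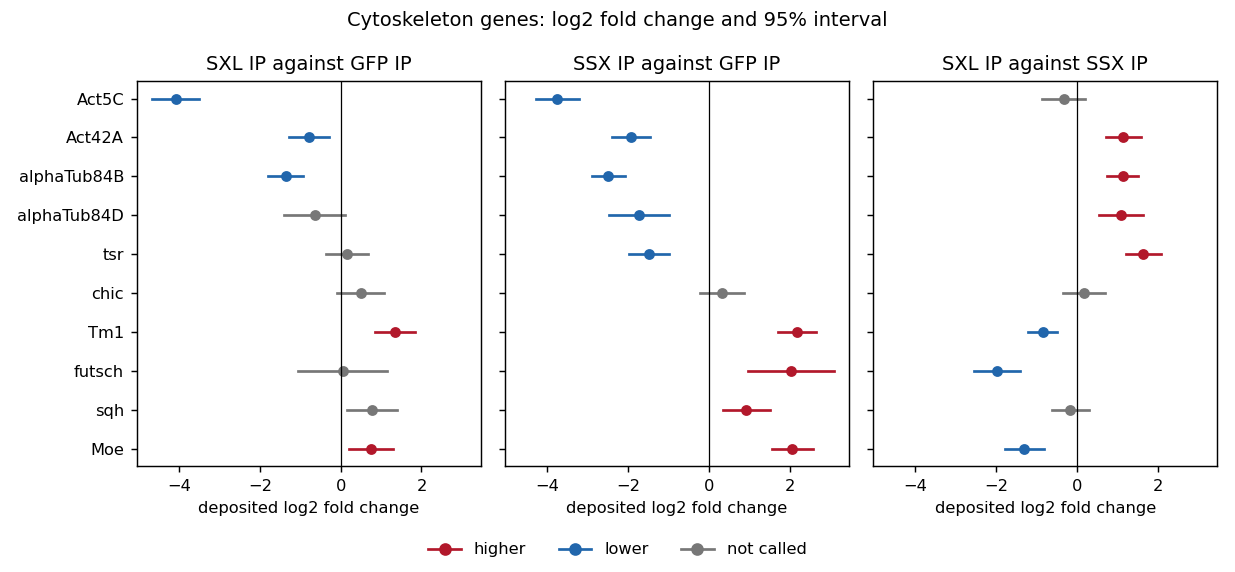
Log2 fold changes of the 10 genes per the authors' deposited tables (x axis, no unit) for 3 comparisons, with lines for the normal 95% interval from the deposited standard error; red genes were higher, blue lower and grey not called at an adjusted p under 0.05. Act5C lies far below 0 in both comparisons with GFP (-4.08 and -3.75), and Tm1, futsch and Moe lie near 2 with SSX.

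Act5C encodes the main cytoplasmic actin and lies on X (5900861 to 5905399). Its log2 fold change was -4.08 with SXL (SE 0.29, adjusted p = 2.9e-41) and -3.75 with SSX (SE 0.27, adjusted p = 5.3e-42) per the authors' deposited tables. This is 16.9-fold lower with SXL than with GFP and 13.4-fold lower with SSX than with GFP. Only 51 of 7170 tested genes were lower with SXL, and 151 of 9034 with SSX, per the authors' deposited tables. The proteins could not be told apart on Act5C: log2 SXL over SSX was -0.33 (95% interval -0.86 to 0.19, adjusted p = 0.34) per the authors' deposited table.

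The deposited values also give the size of this signal, because the mean over all 7 libraries and the fold changes together fix a mean for each group. These implied means of Act5C were 11915 normalized counts with SXL, 15024 with SSX and 201947 with GFP, from the authors' deposited tables. That is 0.484% of all implied normalized counts in the SXL IP, 0.434% in the SSX IP and 5.83% in the GFP IP. Act5C thus held about 42219 reads over both GFP libraries by the same calculation, so its fold changes rest on many reads on each side. The other 9 genes together held 0.415% with SXL, 0.475% with SSX and 0.246% with GFP. For 498 listed genes with a mean of at least 400 normalized counts, 95% of the implied means were 0.997 to 1.01 times the measured mean for SXL, 0.994 to 1.00 times for SSX and 1.00 to 1.14 times for GFP. Over 906 listed genes averaging 50 or more, the range for GFP widened to 1.00 to 1.77 times. Listed genes are high with a bait, so the accuracy for genes that fell was not tested.

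**Figure D2:**
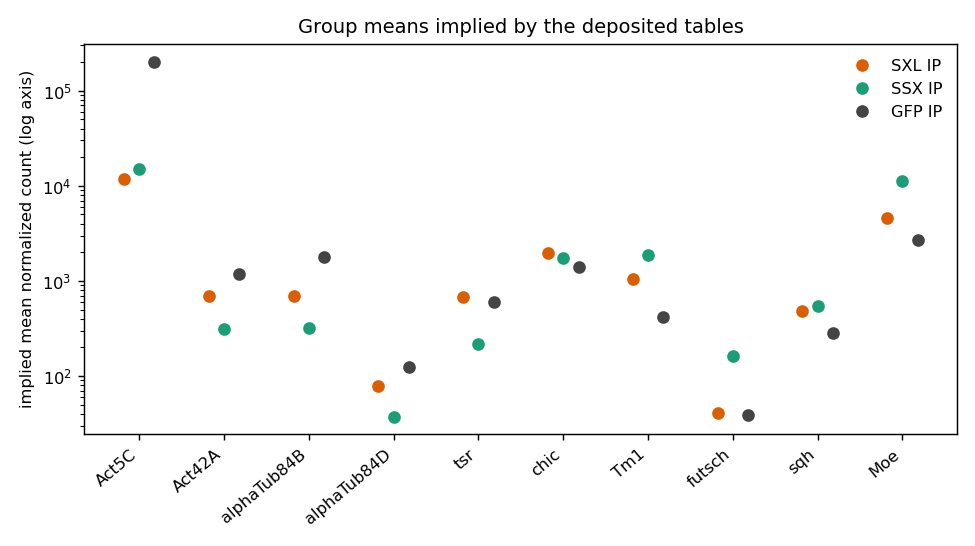
Mean normalized count per group (y axis, log scale) implied by the authors' deposited tables for each of the 10 genes, with SXL IP in orange, SSX IP in green and GFP IP in dark grey. Act5C is at 11915 with SXL and 15024 with SSX, against 201947 with GFP. For Tm1, Moe, sqh, chic and futsch the GFP point is the lowest of the group means. For futsch it is close to the SXL point (39.3 against 40.6).

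Act42A, the other cytoplasmic actin gene (2R, 6013910 to 6015689), also fell with both proteins, by much less than Act5C. Its log2 fold change was -0.79 with SXL (95% interval -1.28 to -0.29, adjusted p = 0.0095) and -1.93 with SSX (95% interval -2.39 to -1.46, adjusted p = 6.3e-15) per the authors' deposited tables. The intervals of the 2 actin genes do not overlap in either comparison. Implied means of Act42A were 693 normalized counts with SXL, 314 with SSX and 1195 with GFP, from the authors' deposited tables. Here the proteins differed: Act42A was 2.21-fold higher with SXL than with SSX (log2 1.14, SE 0.22, adjusted p = 2.3e-06) per the authors' deposited table. Actin genes have near-identical coding regions, and how the authors' counting treated reads that match several of them was not given in the sources used here.

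Both alpha-tubulin genes fell with SSX, and alphaTub84B also fell with SXL. For alphaTub84B (3R, 7086599 to 7088839) the log2 fold change was -1.36 with SXL (SE 0.22, adjusted p = 2.3e-08) and -2.49 with SSX (SE 0.21, adjusted p = 1.6e-31) per the authors' deposited tables. Its implied means were 697 normalized counts with SXL, 318 with SSX and 1785 with GFP, from the authors' deposited tables. The paralogue alphaTub84D (3R, 7530753 to 7532732) fell with SSX (log2 -1.73, SE 0.38, adjusted p = 2.9e-05) per the authors' deposited table. With SXL it had -0.65, with a 95% interval of -1.41 to 0.12 and an adjusted p of 0.21 per the authors' deposited table, so a fall like that of alphaTub84B lies within its interval. Few reads stand behind alphaTub84D, about 26 over both GFP libraries as implied by the authors' deposited tables, with the wider error given above for genes averaging 50 or more. Log2 SXL over SSX was 1.13 for alphaTub84B (adjusted p = 9.2e-08) and 1.08 for alphaTub84D (adjusted p = 0.00046) per the authors' deposited table, so the paralogues differed between the proteins by nearly the same amount. These genes too are near-identical in coding sequence, and their reads may be shared.

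Of the actin turnover genes, tsr separated the proteins most and chic did not pass any test. Twinstar, the fly cofilin encoded by tsr (2R, 24044453 to 24046805), fell with SSX by 1.49 on the log2 scale (SE 0.25, adjusted p = 2.9e-08) per the authors' deposited table. With SXL it had 0.15, with a 95% interval of -0.37 to 0.67 (adjusted p = 0.72) per the authors' deposited table. The direct comparison put tsr 3.11-fold higher with SXL than with SSX (log2 1.64, SE 0.22, adjusted p = 3.2e-12), and 242 of 9500 tested genes were higher per the authors' deposited table. Implied means of tsr were 673 normalized counts with SXL, 216 with SSX and 606 with GFP, from the authors' deposited tables. The gene span of tsr overlaps IntS1 in RefSeq, and whether reads were assigned by strand was not given in the sources used here.

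Profilin, encoded by chic (2L, 5972115 to 5981018), passed the test in none of the 3 comparisons. Its log2 fold change was 0.49 with SXL (95% interval -0.09 to 1.08, adjusted p = 0.21) and 0.32 with SSX (95% interval -0.22 to 0.86, adjusted p = 0.33) per the authors' deposited tables. Log2 SXL over SSX of chic was 0.17 (95% interval -0.35 to 0.69, adjusted p = 0.65) per the authors' deposited table. A change of up to the ends of these intervals cannot be told from none. Its implied means were 1962 normalized counts with SXL, 1744 with SSX and 1393 with GFP, from the authors' deposited tables.

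Tm1 encodes a tropomyosin and lies on 3R (15281371 to 15308779). It had 1032 and 1062 normalized counts in the SXL libraries, 1606, 1980 and 2097 in the SSX libraries, and 361 and 448 in the GFP libraries. No library of one group overlapped another group: every SSX library was above both SXL libraries, and these were above both GFP libraries. Tm1 has counts because it was listed for being high with SSX, so the selection favoured such a gap. Of all 956 listed genes 952 were higher with SSX, 752 higher with SXL and 865 lower with SXL than with SSX per the authors' deposited tables. How many of them also lack overlap was not counted, so this order of the libraries cannot be called particular to Tm1. Group means of Tm1 were 1047 ± 21.4 with SXL (SD, n = 2), 1894 ± 257 with SSX (SD, n = 3) and 405 ± 61.7 with GFP (SD, n = 2). Tm1 rose by a log2 of 1.34 with SXL (SE 0.25, adjusted p = 2e-06) and 2.19 with SSX (SE 0.24, adjusted p = 1.6e-18) per the authors' deposited tables. Log2 SXL over SSX was -0.85 (adjusted p = 3.6e-05) per the authors' deposited table. The GFP values rest on 32 and 54 reads. In RefSeq the span of Tm1 overlaps l(3)neo43 and CG45218.

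Moe encodes moesin, the only fly protein of the ezrin, radixin and moesin family, and lies on X (8873012 to 8898332). It had 4363 and 4687 normalized counts in the SXL libraries, 8276, 10689 and 14870 in the SSX libraries, and 2675 and 2632 in the GFP libraries. The 3 groups again did not overlap, under the same selection and with the share of listed genes like this not counted. The SSX libraries spread the most. Means were 4525 ± 229 with SXL (SD, n = 2), 11278 ± 3336 with SSX (SD, n = 3) and 2653 ± 30.3 with GFP (SD, n = 2). Moe rose with SSX (log2 2.07, SE 0.26, adjusted p = 1.1e-14) and less with SXL (log2 0.76, SE 0.28, adjusted p = 0.025) per the authors' deposited tables, and log2 SXL over SSX was -1.31 (adjusted p = 1.8e-06). The rise with SXL no longer passed when any 1 SXL or GFP library was left out. In edgeR on the listed genes (quasi-likelihood, Benjamini-Hochberg) its adjusted p was 0.017, and it was 0.057 without SXL library 2, 0.105 without SXL library 3, 0.0998 without GFP library 2 and 0.115 without GFP library 3. The log2 fold change was 0.72 to 0.82 over all fits with 1 library left out. A lone library is assumed there to vary like those of the other groups.

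Futsch, a large microtubule-associated protein related to vertebrate MAP1B and used as a neuronal marker (antibody 22C10), is encoded on X (1409069 to 1453686). It had 39.9 and 41.2 normalized counts in the SXL libraries, 129, 162 and 199 in the SSX libraries, and 11.3 and 58.1 in the GFP libraries. All SSX libraries were above every other library, and the SXL values lay between the 2 GFP values. Means were 40.6 ± 0.872 with SXL (SD, n = 2), 163 ± 35 with SSX (SD, n = 3) and 34.7 ± 33.1 with GFP (SD, n = 2). The GFP values stand for 1 and 7 reads. Futsch rose with SSX (log2 2.03, SE 0.54, adjusted p = 0.0007) and had 0.05 with SXL (95% interval -1.05 to 1.14, adjusted p = 0.96) per the authors' deposited tables. The edgeR value for SSX against GFP was 2.11 with all libraries, 1.49 without GFP library 2 and 3.85 without GFP library 3. These fits cover only genes listed for being high with a bait, so they show dependence on libraries only. The comparison of the baits with each other does not set a value against the few GFP reads: log2 SXL over SSX was -1.98 (SE 0.29, adjusted p = 3.5e-10) per the authors' deposited table. Futsch was listed for being high with SSX, however, so the selection favoured this direction. Of all 956 listed genes 865 were lower with SXL than with SSX, with a median of -1.23 per the authors' deposited table. The gene Gr2a lies within the annotated span of futsch. Of the neuron list only elav could be matched, at log2 2.33 with SXL and 4.01 with SSX per the authors' deposited tables. It was matched through the enriched lists, so the selection favoured high values, and it says nothing about neuron genes as a group.

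**Figure D3:**
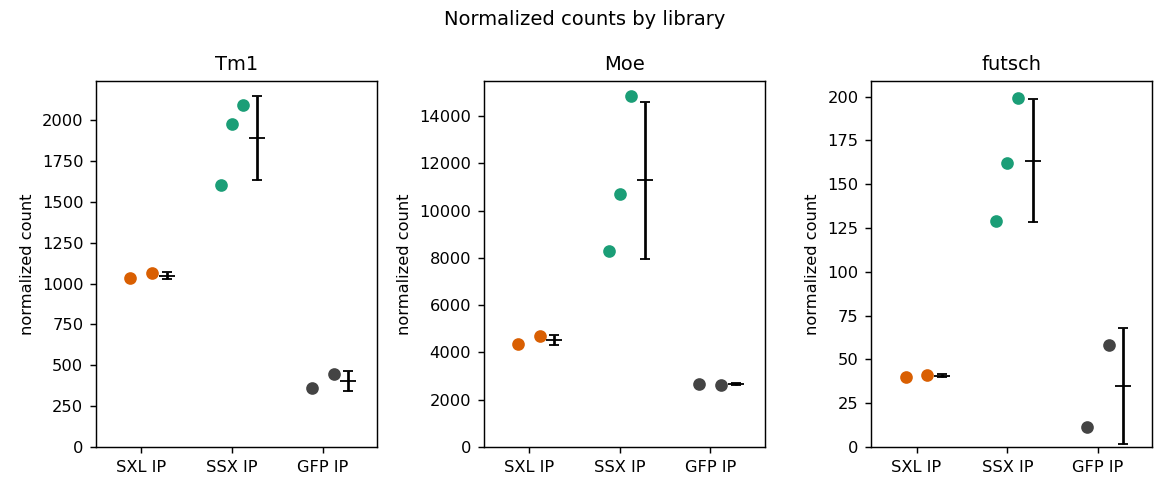
Normalized counts (y axis, from 0) of Tm1, Moe and futsch in each library (points), grouped as SXL IP, SSX IP and GFP IP, with the mean and SD in black beside each group. Every SSX library lies above every SXL and GFP library, for genes that were listed for being high with SSX. For futsch the GFP points (11.3 and 58.1) lie on either side of the SXL points.

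The myosin II regulatory light chain gene sqh (X, 6223061 to 6225140) rose with SSX (log2 0.93, SE 0.30, adjusted p = 0.0056) per the authors' deposited table. With SXL it had 0.77 (SE 0.32, adjusted p = 0.051) per the authors' deposited table, just outside the threshold. Log2 SXL over SSX of sqh was -0.16 (95% interval -0.63 to 0.30, adjusted p = 0.62) per the authors' deposited table, so the pair of results does not show a difference between the proteins. Implied means were 481 normalized counts with SXL, 539 with SSX and 283 with GFP, from the authors' deposited tables. About 59 reads over both GFP libraries are implied for sqh.

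Set directly against each other, the proteins differed on both alpha-tubulin genes, 1 actin gene and tsr in one direction and on 3 genes for filament-binding proteins in the other. By the authors' deposited table of SXL against SSX, 7 of the 10 genes passed, where 37.4% of 9500 tested genes did. Act42A, alphaTub84B, alphaTub84D and tsr were higher with SXL (4 of 10, background 11.5%), and Tm1, futsch and Moe were lower with SXL (3 of 10, background 25.9%). Act5C, chic and sqh did not pass. Among genes averaging at least 50 normalized counts 58.3% passed, 16.6% higher and 41.7% lower with SXL. So 7 of 10 is near that share and the 3 lower genes do not exceed theirs. Whether the 4 higher genes exceed theirs was not tested. They include alphaTub84B and alphaTub84D, whose reads may be shared, so these calls may not be independent. The median of the 10 genes was 0.00, with a range of -1.98 for futsch to 1.64 for tsr, and the median of all tested genes was -0.23 per the authors' deposited table. Genes averaging at least 50 normalized counts had a median of -0.32. Every one of the 10 genes was tested in each of the 3 comparisons.

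**Figure D4:**
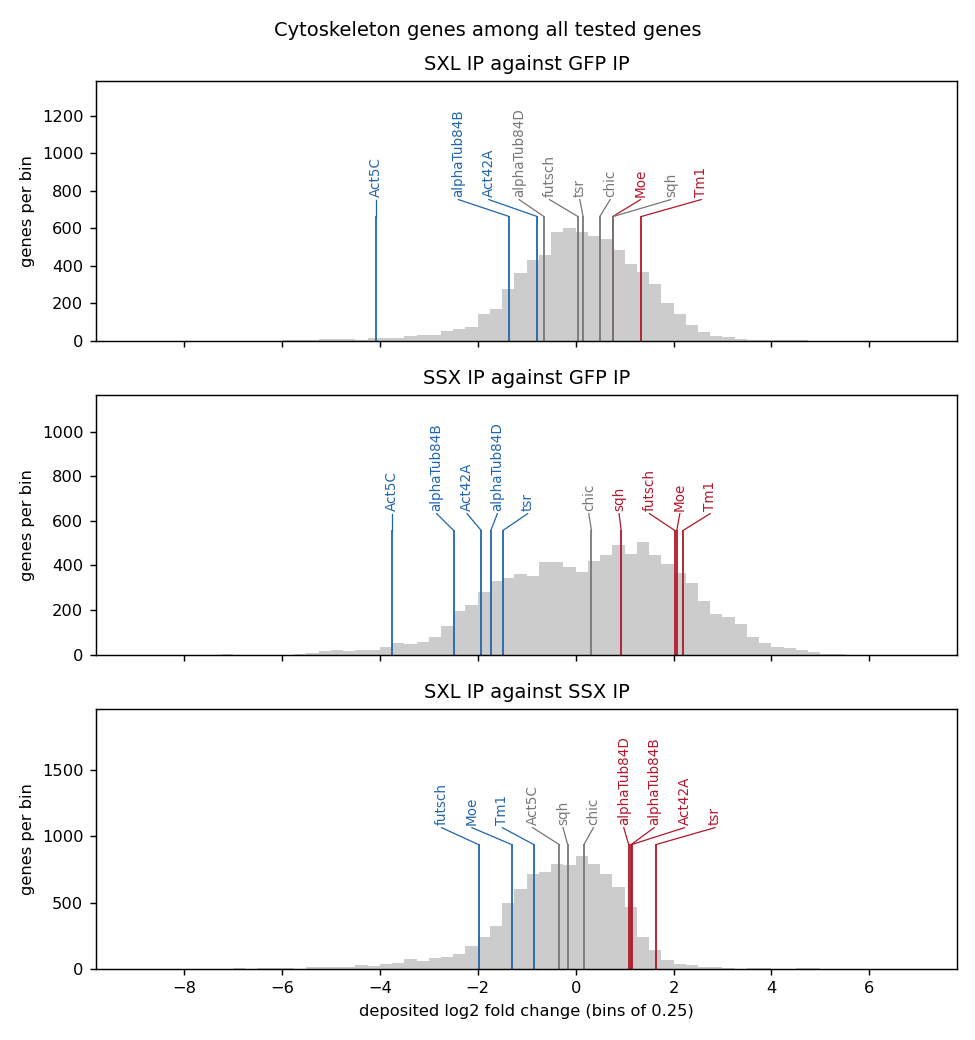
Number of tested genes per bin of deposited log2 fold change (grey bars, bins of 0.25) for 3 comparisons, with the 10 genes marked by lines in red (higher), blue (lower) or grey (not called). Act5C stands in the lower tail against GFP. For chic, 62.7% of tested genes were lower with SXL and 47.9% with SSX, and for sqh 71.2% and 60.2%. The gene tsr is the highest of the 10 with SXL over SSX (1.64).

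Tm1, futsch and Moe are in the authors' list for SSX, which holds 947 genes (10.5% of those tested) whose log2 fold change exceeds 2 with an adjusted p below 0.001. Within that list they stand near the lower end: futsch ranks 18, Moe 45 and Tm1 141 from the lowest, and the list's median is 2.79 per the authors' deposited table. None of the 10 genes is in the authors' list for SXL (199 genes). By Pearson's r of log2(normalized count + 1) over the 7 libraries, the genes most like Tm1 were SPoCk (1.00), Snoo (0.999) and Pdk1 (0.999), where the median over 953 listed genes was 0.970. For Moe they were CG10555 (0.999), RecQ5 (0.999) and Su(H) (0.997; median 0.941), and for futsch CG10588 (0.982), CG13397 (0.979) and chas (0.978; median 0.824). All these genes share the same libraries and were listed for being high with a bait, so high values of r are common.

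The genes also differ in annotated gene span, which includes introns. They were chosen with earlier results of these data known, and the relation of span to fold change over all tested genes was not examined. The 5 genes that fell with SSX span 1.78 to 4.54 kb, chic spans 8.90 kb, and Moe, Tm1 and futsch span 25.3, 27.4 and 44.6 kb. The short gene sqh (2.08 kb) is the exception among those that rose. Over the 10 genes Spearman's correlation between span and log2 fold change was 0.64 for SSX against GFP, 0.39 for SXL against GFP and -0.77 for SXL against SSX, as a description of genes that share all libraries. Listed genes as a whole have a median span of 7.36 kb. By the authors' annotation, the 22 listed genes for actin binding, Tm1 and Moe among them, have a median span of 20221.5 bp. The 13 for microtubule binding, futsch among them, have 13163 bp. Median log2 fold changes with SSX were 2.40 and 2.65 for these groups and 2.77 for all listed genes per the authors' deposited table. Of the 4 X-linked genes, Act5C fell with SSX while futsch, sqh and Moe rose.

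**Figure D5:**
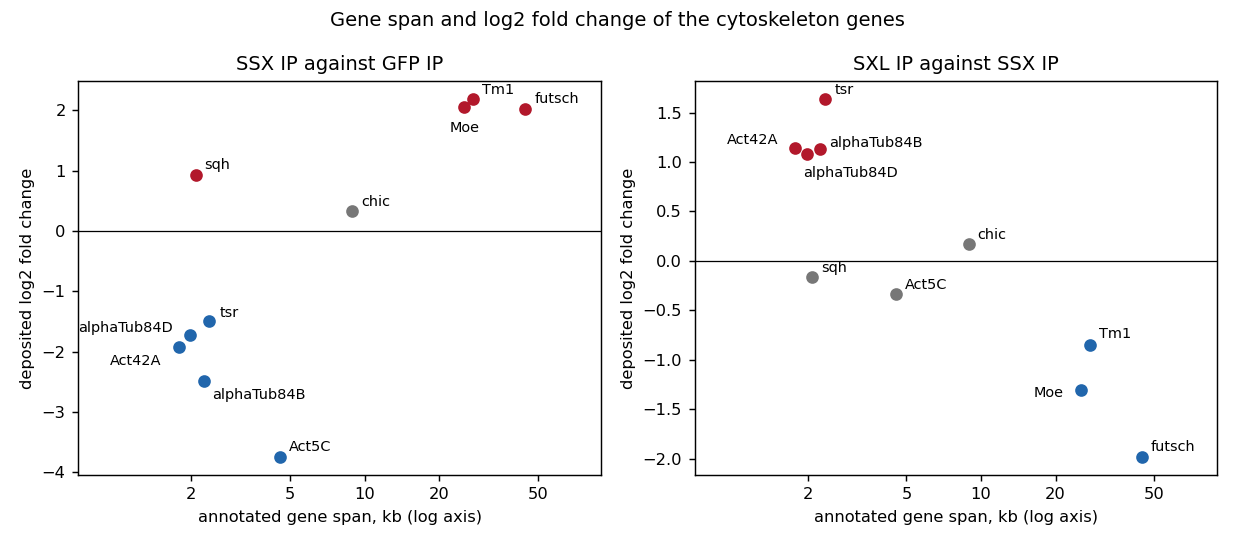
Deposited log2 fold change (y axis) against annotated gene span in kb (x axis, log scale) for the 10 genes, for SSX against GFP and for SXL against SSX; red genes were higher, blue lower and grey not called. The 3 genes above 20 kb are at 2.03 to 2.19 with SSX against GFP and at -1.98 to -0.85 for SXL against SSX.

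Other cytoskeleton genes could be followed only where an identifier could be matched to a name. Of 108 genes in lists that include actins, tubulins, actin turnover, crosslinking, myosins, microtubule-associated proteins, septins and lamins, 10 are the genes above and 16 others were matched. Of these 16, betaTub85D was not tested, and the other 15 are in the authors' list for SSX, which fixes their direction. All 15 were higher with both proteins, and 13 were lower with SXL than with SSX per the authors' deposited tables. Of all 956 listed genes 752 were higher with SXL, 952 higher with SSX and 865 lower with SXL than with SSX, so these counts do not set the 15 apart. Among actin regulators, Arp2, a subunit of the complex that nucleates branched actin, had 2.09 with SXL and 3.52 with SSX, and Fim, the filament crosslinker fimbrin, had 1.49 and 3.65 per the authors' deposited tables. The adducin gene hts had 1.62 with SXL and 2.94 with SSX per the authors' deposited tables. Among microtubule genes, the depolymerising kinesin Klp10A had 1.36 with SXL and 2.95 with SSX, and Patronin, which protects microtubule minus ends, had 1.34 and 2.95 per the authors' deposited tables. Mbs, the myosin phosphatase subunit that acts on the product of sqh, had 0.88 with SXL and 2.09 with SSX per the authors' deposited tables. Lasp (log2 SXL over SSX -0.51, adjusted p = 0.12) was among the 2 that did not pass between the proteins per the authors' deposited table.

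The authors' annotation gave the term actin binding to 22 of the 956 listed genes, Tm1 and Moe among them, and microtubule binding to 13, futsch among them. Median log2 fold changes of the 22 were 1.31 with SXL and 2.40 with SSX, and those of the 13 were 1.36 and 2.65, from the authors' deposited tables. All 956 listed genes had medians of 1.55 and 2.77 per the authors' deposited tables, so neither group stood above the other listed genes. For SXL over SSX the medians were -1.28 and -1.31, where all listed genes had -1.23 per the authors' deposited table.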

How the data were processed

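RIP-seq libraries from SL2 cells were ribosome-depleted and made with a stranded low-input kit, per the labels' protocols. Trimmomatic, TopHat2, featureCounts, DESeq, DESeq2 and BDGP6 are named in the submitters' processing notes, without versions or roles. The authors deposited 3 tables of 17559 genes with, per the file headers, a mean normalized signal, a log2 fold change and its standard error, a score from the authors' test, and raw and adjusted p-values. Shorter lists add the deposited read counts per library, with other annotation columns such as start and end; 14 further columns per library were not used. Size factors were solved by least squares from these counts and the authors' mean, and normalized counts are counts divided by them. Calls are those of the deposited tables at an adjusted p under 0.05, adjusted over all tested genes.

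Counts were at hand for 956 listed genes, so edgeR 4.0.16 (quasi-likelihood, R 4.3.3, these size factors) and DESeq2 1.42.0 were run on these alone. They were selected on the outcome, so these fits show dependence on libraries only; the edgeR script was tested on simulated data. Group means for all genes were solved from the mean over 7 libraries and the 2 fold changes against GFP (Python 3.11.15, pandas 2.3.3, numpy 2.4.6, scipy 1.17.1; figures with matplotlib 3.10.9). Since numbers in column names and titles differ, each library was taken only as one of its group and is named by column number. No source calls the replicates separate cultures, so the spread behind each p-value may be only technical. The 10 genes and all lists were chosen with earlier results of these data known. The full tables give identifiers only: the symbols of 7 genes came with the definition of the gene set, and RefSeq lists FBgn0003884 under both alphaTub84B and alphaTub84D. Coordinates of listed genes are the deposited BDGP6 ones; the others are from RefSeq (Release 6), which gave the same start for 99.2% of 799 listed genes matched by name. Named were all 10 genes, up to 4 genes a list by lowest adjusted p with SSX, the 3 genes most like each counted gene, both baits, and the matched marker of 4 cell type lists; Lasp was also named, after its values were seen, as one that did not pass between the proteins. Some genes of the lists are not reported here. Alternatives covered thresholds, filters, scaling, test, a block on the column number and single libraries. No sequences were used here.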

Additional observations from a re-analysis of the deposited data

How the results depend on the processing

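The count of the 10 genes called was 5 for SXL against GFP, 9 with SSX in place of SXL, and 7 between the proteins. The shares of all tested genes were 29.4%, 45.4% and 37.4%. At the authors' list threshold in both directions it was 1, 5 and 0 (6.01%, 17.3% and 4.4% of all), a stricter rule by construction (7 passed between the proteins at an adjusted p under 0.05 in the authors' deposited table). With Bonferroni adjustment it was 3, 6 and 6 (9.92%, 19.1% and 12.8%). Counts at an adjusted p under 0.01 were 4, 9 and 7 (21%, 34.9% and 27.1%). With centring on the median of all tested genes they were 4, 8 and 7 (29.5%, 46.3% and 38%), and for genes averaging 50 or more normalized counts 6, 9 and 7 (46.9%, 70.8% and 58.3%). Scaling on the implied totals, an alternative chosen after seeing the data, moved all SXL values up by 0.49 on the log2 scale: 7 genes were then called with SXL (5 higher, 2 lower), 9 with SSX and 7 between the proteins (36.1%, 45.5% and 41.1% of all), where chic joined those higher with SXL and Tm1 no longer passed. On that scale 79.8% of all calls with SXL were higher (55.7% as deposited) and 64.2% between the proteins (30.8%); median centring gave 42.5% higher with SSX (57.6%) and 46.8% between the proteins (30.8%).

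For Tm1, Moe and futsch, edgeR with TMM over the listed genes gave -0.20, -0.79 and -1.46 with SXL, -0.60, -0.75 and -0.72 with SSX, and 0.40, -0.039 and -0.74 for SXL over SSX. By the edgeR quasi-likelihood test on that scale, adjusted p was 0.010 for Moe with SXL, and 0.025 for Tm1 and 0.0078 for Moe with SSX. For SXL over SSX it was 0.015 for Tm1 and 0.033 for futsch. The other values did not pass. That scaling centres genes selected for enrichment, so these values are relative to the listed genes. With DESeq2 all 9 values of these genes kept their direction and their side of the threshold. The filter removed none of the 956 genes, so leaving it off changes nothing by construction. Leaving out 1 library at a time gave Tm1 1.22 to 1.54 with SXL, 2.08 to 2.39 with SSX and -0.96 to -0.78 for SXL over SSX. The ranges for Moe were 0.72 to 0.82, 1.84 to 2.27 and -1.50 to -1.07, and those for futsch -0.52 to 1.84, 1.49 to 3.85 and -2.15 to -1.84. Without GFP library 2, which holds 1 futsch read, futsch had -0.52 with SXL. The other 7 genes were without library counts here, and what single libraries do to them was not tested. The column numbers do not follow the replicate numbers of the sample titles, and libraries of the same column number did not deviate together (r of -0.070 to 0.021 over 498 genes), so no pairing is known. A replicate block on the column number, chosen after seeing the data, gave Moe 0.77, 2.26 and -1.48, Tm1 1.36, 2.32 and -0.96, and futsch 0.12, 2.27 and -2.15 in the same order, and changed no call of these 3 genes. Column number 1 occurs only for an SSX library, so this fit nearly repeats the one without SSX library 1. That fit gave Moe 0.77, 2.27 and -1.50. For futsch, with 8 GFP reads, the standard error was 0.54 for SSX against GFP and 0.29 for SXL over SSX in the authors' deposited tables, while for Act5C it was 0.27 in both.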
